A study of Caenorhabditis elegans with 15 samples.

Results

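The data described here are the annotated skipped exons of Caenorhabditis elegans, scored by RNA sequencing in 4 strains with a mutation in KIN17 or PRCC and in their control. A skipped exon event is an internal exon that is either joined to both neighbouring exons or left out, so that the neighbours are spliced directly together. The events were those of the EnsArch65 gene predictions whose identifier begins with SE, and a member had to have a score in all 15 libraries. Of 604 such events scored in at least 1 library, 554 had a score in all 15 and 50 were left out. These 554 events hold 540 distinct skipped exons, since some exons are listed with more than 1 pair of neighbours, and they are part of 2285 annotated events of 6 classes with a score in all libraries and of 40212 events of all kinds in the series.

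The strains were KIN17(K23N) (SZ345), KIN17(M107I) (SZ355), PRCC(I371F) (SZ346), PRCC(null) (SZ356) and the smg-4 control (SZ340), with 3 libraries each. KIN17(K23N) carries dxbp-1(az121) with unc-73(e936az30), KIN17(M107I) carries dxbp-1(az52) with unc-73(az63), PRCC(I371F) carries prcc-1(az122), and PRCC(null) carries prcc-1(gk5556), a deletion of the whole coding region. All strains, the control included, carry smg-4(az152), so nonsense-mediated decay is disabled in every library. The unc-73 alleles are in the KIN17 strains only, so in these strains the dxbp-1 and unc-73 mutations cannot be told apart. RNA was poly(A) RNA of mixed-stage whole worm cultures grown at 20 °C, so a shift in the make-up of a culture and a shift inside its cells cannot be told apart. The libraries of the control, KIN17(K23N) and PRCC(I371F) are numbered 1 to 9 and those of KIN17(M107I) and PRCC(null) 24 to 29, so for the last 2 strains the mutation and the set of libraries cannot be told apart.

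KIN17 and PRCC are proteins found in the spliceosome around the time it becomes active. By then the U6 snRNA has replaced the U1 snRNA at the 5’ splice site. Inclusion of an exon needs a pair of splicing reactions across its flanking introns, and skipping needs only 1 across the whole interval. Skipped exons are often controlled by SR proteins and hnRNPs bound in or near the exon. An exon whose length is a multiple of 3 can be taken in or left out without a shift of the reading frame, while other lengths shift it and often expose a premature stop codon. Messages with such a stop codon are normally removed by nonsense-mediated decay, the pathway that smg-4 serves, and genes of splicing factors commonly hold exons of this kind, through which they set their own level.

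PSI, the percent of an event's messages that include the exon, was computed by dividing the included form's score by the summed scores of the 2 forms. In 22.2% of the values both scores added up to 1000, the full scale, and the median sum was 962. A sum under 500 occurred in at least 1 library for 48 members, among them asd-1, gbb-1 and etr-1 below, and the median SD of the 3 control libraries was 4.67 percentage points for these 48 and 2.41 for the other 506. No read counts are given with the scores, so the depth behind a PSI is unknown. The mean absolute difference in PSI between libraries was 4.0 to 5.72 percentage points for the 15 pairs of libraries of the same strain and 4.66 to 7.93 for the 90 pairs of different strains. The median PSI over the 554 events lay close together in the strains, with 58.7% in KIN17(K23N) and 56.3% in KIN17(M107I), and 55.3% in PRCC(I371F), 55.2% in PRCC(null) and 57% in the control. Over the 15 libraries, the PSI of the median event spanned 14.3 percentage points, while 31 events spanned more than 50.

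The skipped exons were short, and the length of most was a multiple of 3. Their length ran between 3 and 11688 nt, with a median of 102.5 nt and quartiles of 58.25 and 179.25 nt, and the length was a multiple of 3 for 411 of 554 events (74.2%). The introns before and after the exon had median lengths of 221 and 310.5 nt. Names could be given to 508 events, in 379 genes, by matching the exon and its introns to an annotation, and 489 of these matched a transcript in full. Of the 489, 435 exons were coding, 42 partly coding and 8 in a UTR, and 4 were in transcripts with no coding sequence. The share of multiples of 3 was 81.4% among the coding exons, 354 of 435, against 25.9% among the other 54.

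**Figure D1:**
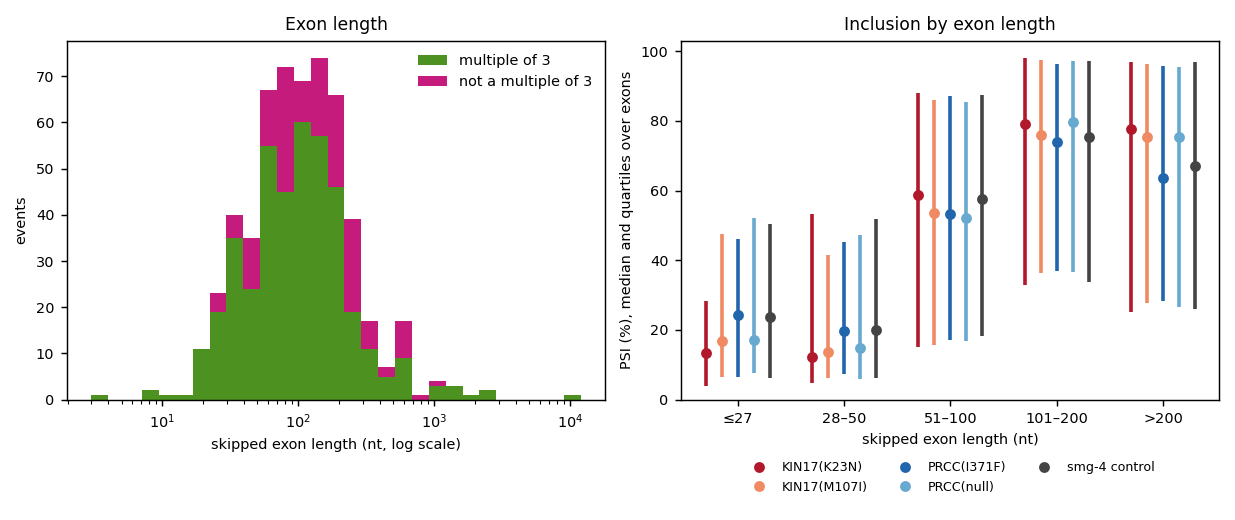
Left, number of skipped exon events by exon length in nt on a log scale, split by whether the length is a multiple of 3. Right, median (point) and quartiles (line) of the mean PSI in percent over the exons of 5 length groups, for each strain. Control medians lie at 23.6% and 19.8% in the groups up to 50 nt and between 57.6% and 75.5% in the longer groups.

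Exon length and inclusion went together in every strain. In the control, the 36 exons of 27 nt or less had a median PSI of 23.6% and the 69 exons of 28 to 50 nt one of 19.8%, and 27 of the 36 and 51 of the 69 lay under 50%. The medians were 57.6% for the 167 exons of 51 to 100 nt, 75.5% for the 167 exons over 100 and up to 200 nt, and 67.1% for the longer exons. Multiples of 3 made up 97.2% of the exons up to 27 nt and 57.4% of those over 200 nt. The shortest exon, of 3 nt on chromosome X (ce10, 11074633 to 11074635, plus strand, SE.0000550, no gene name matched), had a PSI of at most 1.28% in every library. The longest, an exon of 11688 nt in frm-1, which codes for a FERM domain protein (chromosome I, 14882044 to 14893731, minus strand), had 18.3% ± 3.2 in KIN17(K23N) and 24.7% ± 2.1 in KIN17(M107I), and 20% ± 1.2 in PRCC(I371F), 21.9% ± 3.4 in PRCC(null) and 19.7% ± 1.2 in the control (SD, n = 3 each), and was called in no strain.

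Frame-keeping and frame-shifting exons had similar medians in the control, 57.1% and 53.7%, and differed in how the values were spread. A control mean between 20 and 80% was found for 65 of 143 frame-shifting exons (45.5%) and for 141 of 411 frame-keeping exons (34.3%), and a mean under 5% for 10 (6.99%) and 53 (12.9%). A mean over 95% was as common in both, with 35 (24.5%) and 93 (22.6%). With PSI taken as the included score over 1000 the control medians were 39.3% for frame-keeping and 40.8% for frame-shifting exons. Over the whole set, 128 events had a control mean over 95%, 63 one under 5%, and 30 were at 100% or 0% in all 15 libraries, 24 and 6 of them. The exons nearest to 50% in the control were those of dhhc-4, frm-4 (both its 24 nt and its 87 nt exon), asd-1 and unc-16, with control means of 48.9 to 50.9%.

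Each mutant strain was compared with the control in a limma fit of all 2285 annotated events and all 15 libraries, and the threshold for a call was a p under 0.05 after Benjamini-Hochberg adjustment over these events. KIN17(K23N) had 67 called skipped exons, 28 higher and 39 lower than the control, which is 12.1% of the 554 against 8.84% of all annotated events (4.86% higher and 3.98% lower). KIN17(M107I) had 30, 13 higher and 17 lower (5.42% against 3.5%, of which 1.93% higher and 1.58% lower). PRCC(I371F) had 11, 5 higher and 6 lower (1.99% against 2.06%, of which 1.18% higher and 0.875% lower). PRCC(null) had 62, 30 higher and 32 lower (11.2% against 9.41%, of which 5.91% higher and 3.5% lower). The 4 comparisons share the same 3 control libraries, so their counts are not independent of each other. The called differences had a median size of 15.5 percentage points in KIN17(K23N) and 15.1 in KIN17(M107I), and 10.9 in PRCC(I371F) and 14.4 in PRCC(null), while the median over all skipped exons was 2.74, 2.75, 2.14 and 3.29 in the same order.

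**Figure D2:**
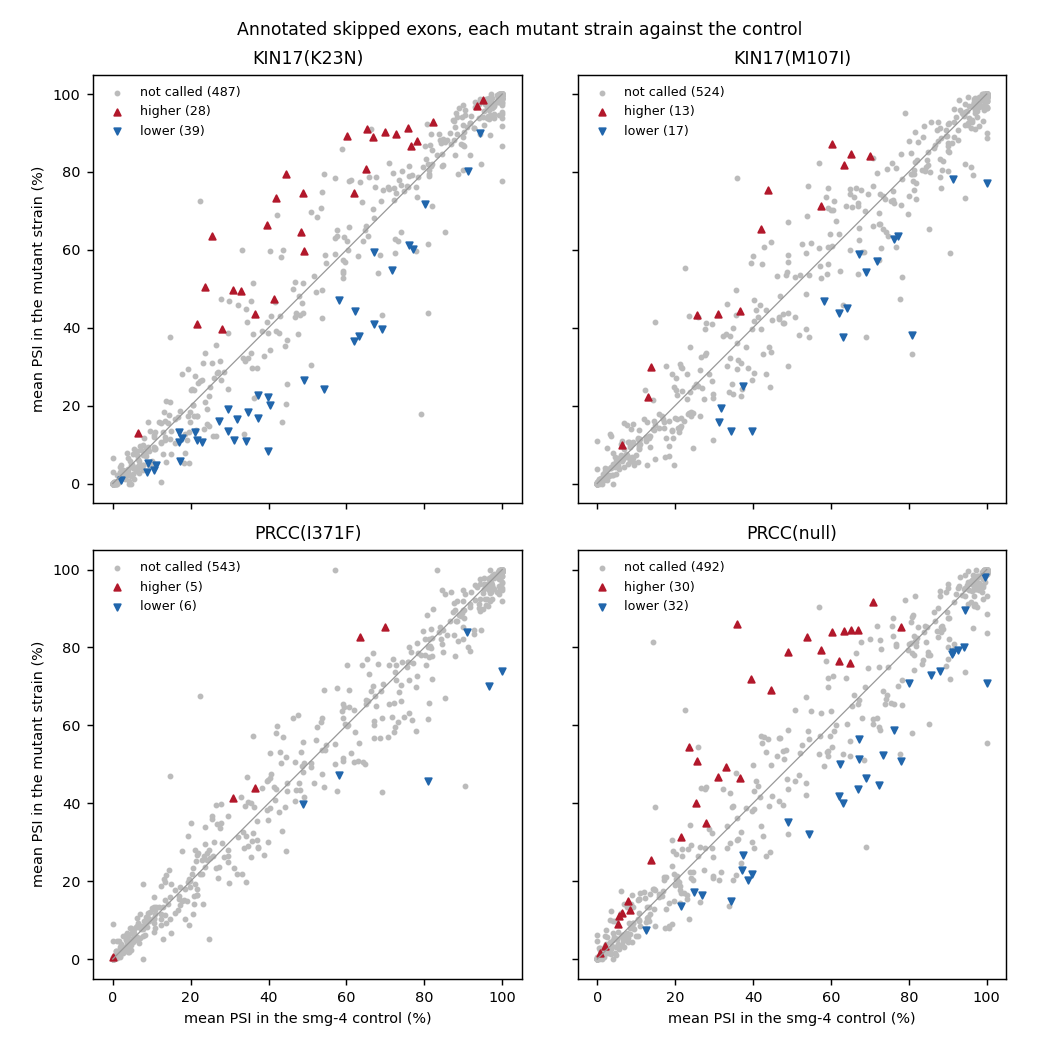
Mean PSI in percent of each of the 554 skipped exons in a mutant strain (vertical) against the smg-4 control (horizontal), 1 panel per strain. Triangles pointing up are events called higher in the mutant strain (28, 13, 5 and 30) and triangles pointing down are events called lower (39, 17, 6 and 32). Grey points are not called and the line marks equal PSI.

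A second rule, with no p-value, asked for large differences and passed some events that limma did not call, as given below. All 9 pairwise differences between 3 mutant and 3 control libraries had to be over 15 percentage points in the same direction, with a mean over 20. The study's methods give the same thresholds, followed by an inspection of the reads by eye that was not done here. It passed 11 skipped exons in KIN17(K23N) (1.49% of all annotated events passed), 9 in KIN17(M107I) (0.7%), and 3 in PRCC(I371F) (0.481%) and 14 in PRCC(null) (1.66%). The calls of KIN17(M107I) and PRCC(I371F) fell in number when any 1 library was left out. Without control replicate 2, limma called 0 exons in KIN17(M107I) (95 at an unadjusted p under 0.05) and 1 in PRCC(I371F). Without PRCC(I371F) replicate 2 it called 0 in that strain (75 at an unadjusted p under 0.05). Without any 1 of its own libraries KIN17(M107I) had 1 to 3. Without control replicate 1 it had 19, and without control replicate 3 it had 17. Each such fit has fewer libraries, and the part of this in the fall was not tested. KIN17(K23N) had 46 to 72 and PRCC(null) 38 to 60 calls with 1 library left out. In fits of only the 6 libraries of a comparison, which share no spread with the other strains, limma called 0 skipped exons in each strain, while an unadjusted p under 0.05 was found for 88 in KIN17(K23N) and 74 in KIN17(M107I), and for 36 in PRCC(I371F) and 111 in PRCC(null).

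Exons of RNA-binding proteins and splicing factors were measured by 25 events in 16 genes of a gene list. The list was chosen with earlier results of these data known, so its shares are a description and not a test. In KIN17(K23N) 9 of the 25 rose, 5 fell and 11 did not pass the test, and the 14 called events lay in 10 genes. KIN17(M107I) had 3 higher and 4 lower, PRCC(I371F) 2 higher and 0 lower, and PRCC(null) 8 higher and 5 lower, in 6, 2 and 9 genes. The share of the 25 called was 56% in KIN17(K23N) (8.84% of all annotated events), 28% in KIN17(M107I) (3.5%), 8% for PRCC(I371F) (2.06%) and 52% in PRCC(null) (9.41%). The median absolute difference from the control over the 25 events was 6.53 percentage points in KIN17(K23N) and 3.55 in KIN17(M107I), and 5.35 in PRCC(I371F) and 6.40 in PRCC(null), beside 1.54, 1.39, 1.38 and 1.74 over all 2285 annotated events. Over all skipped exons, the class of event in the list, the medians given above were larger than over all annotated events. Some of these events are forms of 1 exon and share a skipping junction, as given below, so the 25 are not independent.

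The largest fall in this list was in rsp-7, which codes for an SR family protein. Its skipped exon of 76 nt, partly coding and not a multiple of 3, lies at 10659728 to 10659803 on the plus strand of chromosome II (SE.0000358). PSI was 34.8, 41.7 and 42.2% in KIN17(K23N), 55.4, 53.8 and 54% in KIN17(M107I), 64.7, 56.4 and 64.6% in PRCC(I371F), and 47.3, 45.1 and 47.1% in PRCC(null), against 64.8, 76.8 and 65.7% in the control. No library of a mutant strain reached the lowest control library, although PRCC(I371F) came close to it. The mean fell by 29.5 percentage points in KIN17(K23N) (limma adjusted p = 0.00108), by 14.7 in KIN17(M107I) (0.0497) and by 22.6 in PRCC(null) (0.00362), and the mean difference of -7.17 in PRCC(I371F) was not called (0.389). The call in KIN17(M107I) was lost when any 1 library was left out.

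Inclusion also fell in rbm-39, the homologue of the human splicing factor RBM39. Its exon of 66 nt lies in a UTR (chromosome IV, 1013075 to 1013140, plus strand, SE.0000592). PSI was 33.1, 37.4 and 39.6% in KIN17(K23N), 47.8, 40.3 and 43.2% in KIN17(M107I), 55.7, 44.5 and 51.5% in PRCC(I371F), and 44.4, 43.2 and 37.7% in PRCC(null), against 55.9, 65.8 and 64.2% in the control. All mutant libraries were below all control libraries. The mean fell by 25.2 percentage points in KIN17(K23N) (limma adjusted p = 0.00197), by 18.2 in KIN17(M107I) (0.0286) and by 20.2 in PRCC(null) (0.00618), and the difference of -11.4 in PRCC(I371F) was not called (0.153).

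Smaller falls were measured in another SR protein gene and in swp-1, a gene named for its likeness to suppressor-of-white-apricot, a splicing regulator of Drosophila. The 247 nt exon of rsp-6 (chromosome IV, 7790487 to 7790733), in a transcript annotated with no coding sequence, had 59.5% ± 2.4 in KIN17(K23N) and 58.9% ± 2.7 in KIN17(M107I), and 61.1% ± 3.0 in PRCC(I371F) and 56.6% ± 1.9 in PRCC(null), against 67.1% ± 1.7 in the control (SD, n = 3 each). It was called lower in all of these strains but PRCC(I371F), with limma adjusted p of 0.0294, 0.0424 and 0.00631. The 40 nt exon of swp-1 (chromosome III, 5704663 to 5704702), not a multiple of 3, had means of 78.2 to 80.3% in the 4 mutant strains and 91.3% in the control, and was called in the same 3 strains (0.0307, 0.0373 and 0.0206). For both genes, every mutant library was below every control library. With 1 library left out, the calls of rsp-6 held in 2, 0 and 6 of 6 fits in these 3 strains, and those of swp-1 in 2, 2 and 4.

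Inclusion rose in hrpa-1 and hrpf-1, a pair of hnRNP genes. The gene hrpa-1, which codes for the worm homologue of hnRNP A1, had a pair of events with 1 skipping junction, whose exons of 165 and 166 nt differ by 1 nt at the 5’ splice site (chromosome IV, 3338377 or 3338376 to 3338541, minus strand). For the 166 nt form, which is not a multiple of 3, PSI was 50.6, 50.7 and 47.9% in KIN17(K23N), 39.7, 46.6 and 44% in KIN17(M107I), 39.4, 43.3 and 41% in PRCC(I371F), and 47.2, 45.7 and 47.4% in PRCC(null), against 33.3, 26.6 and 33% in the control. All 12 mutant libraries were above the control. The exon was called higher in all 4 strains, by 18.8, 12.4, 10.2 and 15.8 percentage points in the order just given (limma adjusted p = 0.000885, 0.0231, 0.0352 and 0.00134). The 165 nt form was used less, with control values of 5.24 to 7.33%, and rose by 6.53 percentage points in KIN17(K23N), 3.55 in KIN17(M107I) and 5.51 in PRCC(null).

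The gene hrpf-1, of the hnRNP F/H family, also changed in all 4 strains. Its coding exon of 248 nt, not a multiple of 3 (chromosome I, 6754418 to 6754665, minus strand, SE.0000073), had 43.6% ± 2.2 in KIN17(K23N) and 44.4% ± 1.2 in KIN17(M107I), and 44% ± 1.5 in PRCC(I371F) and 46.5% ± 2.7 in PRCC(null), against 36.6% ± 1.5 in the control (SD, n = 3 each). The rises were of 6.97 to 9.91 percentage points, with limma adjusted p between 0.0027 and 0.0352, and the highest control library, at 38%, was below the lowest mutant library. Of the 8 calls of this exon and of the 166 nt form of hrpa-1, those in PRCC(null) and the one of hrpa-1 in KIN17(K23N) held with any 1 library left out.

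Inclusion of an exon of asd-1, a splicing regulator of the RBFOX family, was much higher in KIN17(K23N) and PRCC(null). It is scored by 3 events with 1 skipping junction, for exons of 243, 247 and 248 nt whose ends differ by 1 or 4 nt (chromosome III, 4198842 or 4198843 to 4199085 or 4199089, plus strand). For the 247 nt form (SE.0000065) PSI was 79.8, 78.3 and 66% in KIN17(K23N), 68.6, 68.9 and 64.3% in KIN17(M107I), 58.2, 59.7 and 49.3% in PRCC(I371F), and 75.9, 78.8 and 82% in PRCC(null), against 49.7, 42.7 and 54.4% in the control. PRCC(I371F) overlapped the control and the other 3 strains did not. The mean rose by 25.8 percentage points in KIN17(K23N) and 30 in PRCC(null) (limma adjusted p = 0.00477 and 0.00198), and the differences of 18.3 in KIN17(M107I) and 6.81 in PRCC(I371F) were not called (0.063 and 0.68). The other forms, with score sums down to 135, gave the same calls, but for the 248 nt form PSI as the included score over 1000 turned the differences round, to -3.76 in KIN17(K23N) and -5.27 in PRCC(null).

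A pair of exons of etr-1, an RNA-binding protein of the CELF family, were higher in the same strains. The frame-shifting exon of 80 nt (chromosome II, 166071 to 166150) had 74.6% ± 2.6 in KIN17(K23N) and 64.1% ± 3.9 in KIN17(M107I), and 63.9% ± 2.8 in PRCC(I371F) and 76.5% ± 2.3 in PRCC(null), against 62% ± 5.5 in the control (SD, n = 3 each). The frame-keeping exon of 219 nt (168175 to 168393) had 79.5% ± 2.8, 61.9% ± 5.7, 51.8% ± 13 and 69.2% ± 7.0 in the same strains, against 44.6% ± 1.5 in the control. Both were called higher in KIN17(K23N), by 12.5 and 34.9 percentage points (limma adjusted p = 0.0206 and 0.00301), and in PRCC(null), by 14.5 and 24.6 (0.00932 and 0.0241). For the 219 nt exon the call in PRCC(null) held in 1 of 6 fits with 1 library left out. Its scores added up to 173 in the lowest library, and with the included score over 1000 its difference in PRCC(null) was -0.055 and not called. A further exon of 213 nt, between them, had means of 29.9 to 39.4% in the mutant strains and 34.1% in the control and was not called.

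**Figure D3:**
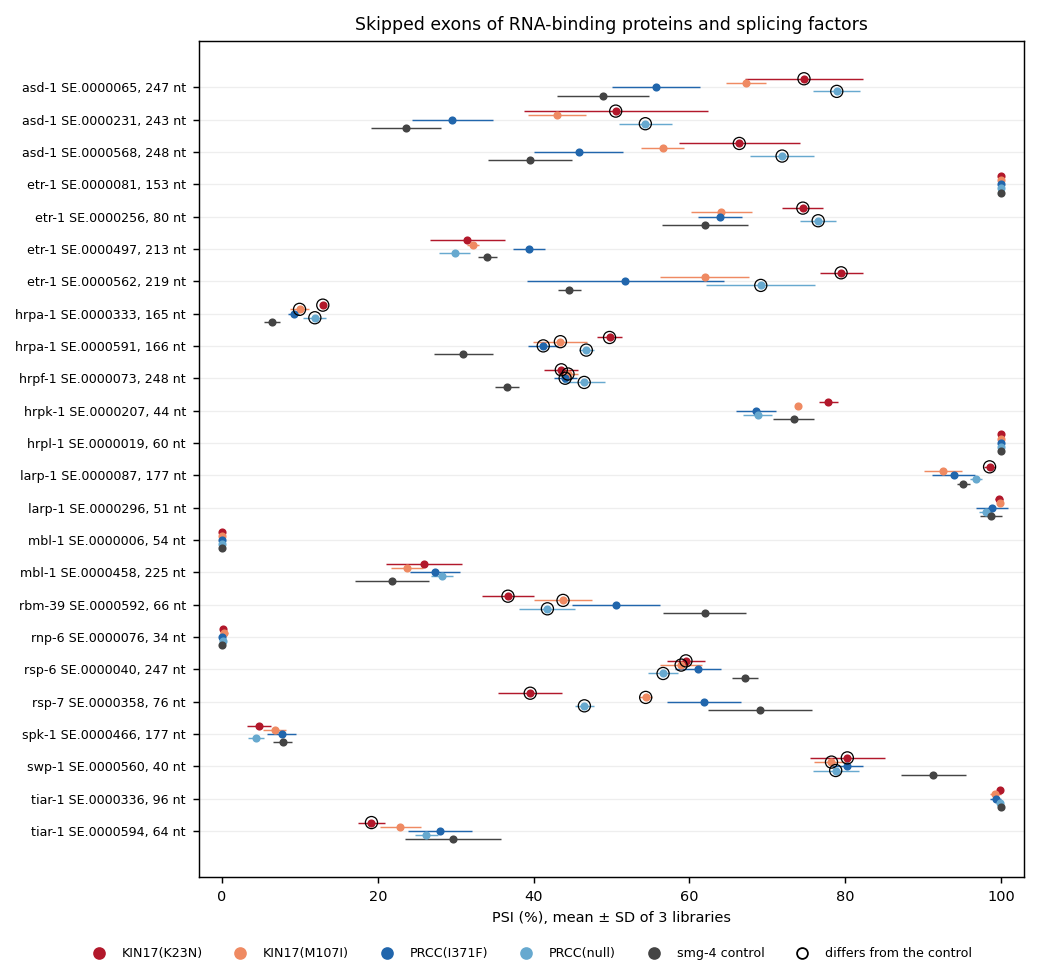
Mean PSI in percent with SD of 3 libraries for 24 of the 25 skipped exon events of RNA-binding proteins and splicing factors, by strain, with the exon length beside the gene and event. Black rings mark strains that differ from the smg-4 control at a limma adjusted p under 0.05. Rings stand on 14 events for KIN17(K23N) and 7 for KIN17(M107I), and on 2 for PRCC(I371F) and 12 for PRCC(null).

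Exons of tiar-1 and larp-1 passed the test in KIN17(K23N) and in no other strain. Neither was called between the KIN17 alleles, and their difference between KIN17(K23N) and the PRCC strains was not tested. The RNA-binding protein gene tiar-1, a TIA-1 homologue, had 19.2% ± 1.8 at its 64 nt exon in KIN17(K23N), against 29.7% ± 6.2 in the control (limma adjusted p = 0.039). A 177 nt exon of larp-1, a La-related protein gene, had 98.5% ± 0.75 in KIN17(K23N), against 95.2% ± 0.82 in the control (0.039). The call of larp-1 was lost when any 1 library was left out, and that of tiar-1 held in 1 of 6 such fits. Of those not called, the 44 nt exon of hrpk-1, an hnRNP K homologue, ranged over 68.5 to 77.8% in the mutant strains, against 73.4% in the control, and a 225 nt exon of the muscleblind gene mbl-1 over 23.7 to 28.2%, against 21.8%.

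Outside this list, the exon with the most significant rise in KIN17(K23N) was in C06A6.4. This frame-keeping exon of 42 nt lies at 7827409 to 7827450 on the minus strand of chromosome IV (SE.0000208). PSI was 65.1, 66.8 and 58.4% in KIN17(K23N), 45, 39.4 and 45.1% in KIN17(M107I), 40, 37.1 and 33% in PRCC(I371F), and 49.5, 51.1 and 51.9% in PRCC(null), against 27.4, 21.9 and 27.5% in the control. All libraries of the mutant strains lay above the control, and KIN17(K23N) was above all other strains. The mean rose by 37.8 percentage points in KIN17(K23N) (limma adjusted p = 0.00012), 17.6 in KIN17(M107I) (0.0187) and 25.2 in PRCC(null) (0.00031), and the difference of 11.1 in PRCC(I371F) was just outside the threshold (0.0537).

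The most significant fall among these exons in KIN17(K23N) was in gfat-1, whose enzyme makes glucosamine 6-phosphate, the first step of the hexosamine pathway. For its frame-keeping exon of 39 nt (chromosome II, 11594528 to 11594566, minus strand, SE.0000344) PSI was 6.17, 7.79 and 11.2% in KIN17(K23N), 11.6, 12.7 and 16.1% in KIN17(M107I), 25, 23.4 and 41.7% in PRCC(I371F), and 22.2, 23.7 and 19.6% in PRCC(null), against 35.8, 43.7 and 40% in the control. PRCC(I371F) replicate 3 alone lay among the control libraries. The mean fell by 31.4 percentage points in KIN17(K23N) (limma adjusted p = 0.000885), 26.4 in KIN17(M107I) (0.0187) and 18 in PRCC(null) (0.037), and the last of these calls was lost when any 1 library was left out.

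Other short exons were lower in the same strains. A 42 nt exon of the phosphatase gene cdc-14 (chromosome II, 5591427 to 5591468) had 10.9% ± 3.9 in KIN17(K23N) and 13.6% ± 0.093 in KIN17(M107I), and 19.8% ± 5.1 in PRCC(I371F) and 14.9% ± 2.7 in PRCC(null), against 34.3% ± 11 in the control (SD, n = 3 each). A 24 nt exon of pqn-52, which codes for a protein with a glutamine- and asparagine-rich domain, had means of 22.7 to 28.8% in the mutant strains, against 37.3% in the control, and a 63 nt exon of alx-1, the homologue of the ESCRT-associated protein ALIX, had 58.7 to 71.7%, against 76.1%. These 3 exons were called lower in both KIN17 strains and in PRCC(null), with limma adjusted p between 0.00249 and 0.0421, and in no case in PRCC(I371F). Of the 105 exons up to 50 nt, 12 were called lower and 3 higher in KIN17(K23N), 6 and 1 in KIN17(M107I), 0 and 1 in PRCC(I371F), and 7 and 3 in PRCC(null). Over all annotated events the shares called lower and higher were 3.98% and 4.86% in KIN17(K23N), 1.58% and 1.93% in KIN17(M107I), 0.875% and 1.18% for PRCC(I371F), and 3.5% and 5.91% for PRCC(null).

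The 105 short exons can also be read library by library. Their median PSI was 10.8, 10.7 and 15.3% in the KIN17(K23N) libraries, 14.3, 13.5 and 16.5% in KIN17(M107I), 22.3, 16.7 and 18.9% in PRCC(I371F) and 16.9, 19.7 and 16.7% in PRCC(null), against 15.8, 22.9 and 24.1% in the control. The first control library thus lay among the mutant libraries, and only KIN17(K23N) stayed below all 3 control libraries. For the exons over 200 nt, the medians were 79.8, 77.5 and 77.2% in KIN17(K23N), 75.8, 70.6 and 71.2% in KIN17(M107I), 64.1, 68.8 and 62.4% in PRCC(I371F) and 74.8, 73.1 and 71.4% in PRCC(null), against 64.2, 69.2 and 68.6% in the control. The group median was above that of every control library in all libraries of the 3 strains other than PRCC(I371F), but single exons did not lean that way: 51 had a higher and 53 a lower mean in KIN17(K23N), 48 and 58 in KIN17(M107I), and 49 and 55 in PRCC(null). Called long exons were 12 higher and 11 lower in KIN17(K23N). The mean difference over the long exons was small, 1.11 percentage points in KIN17(K23N) and 0.996 in KIN17(M107I), and -0.857 in PRCC(I371F) and 0.745 in PRCC(null). With a score sum of at least 500 it was 0.293, 0.298, -0.690 and 0.332 in these strains.

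**Figure D4:**
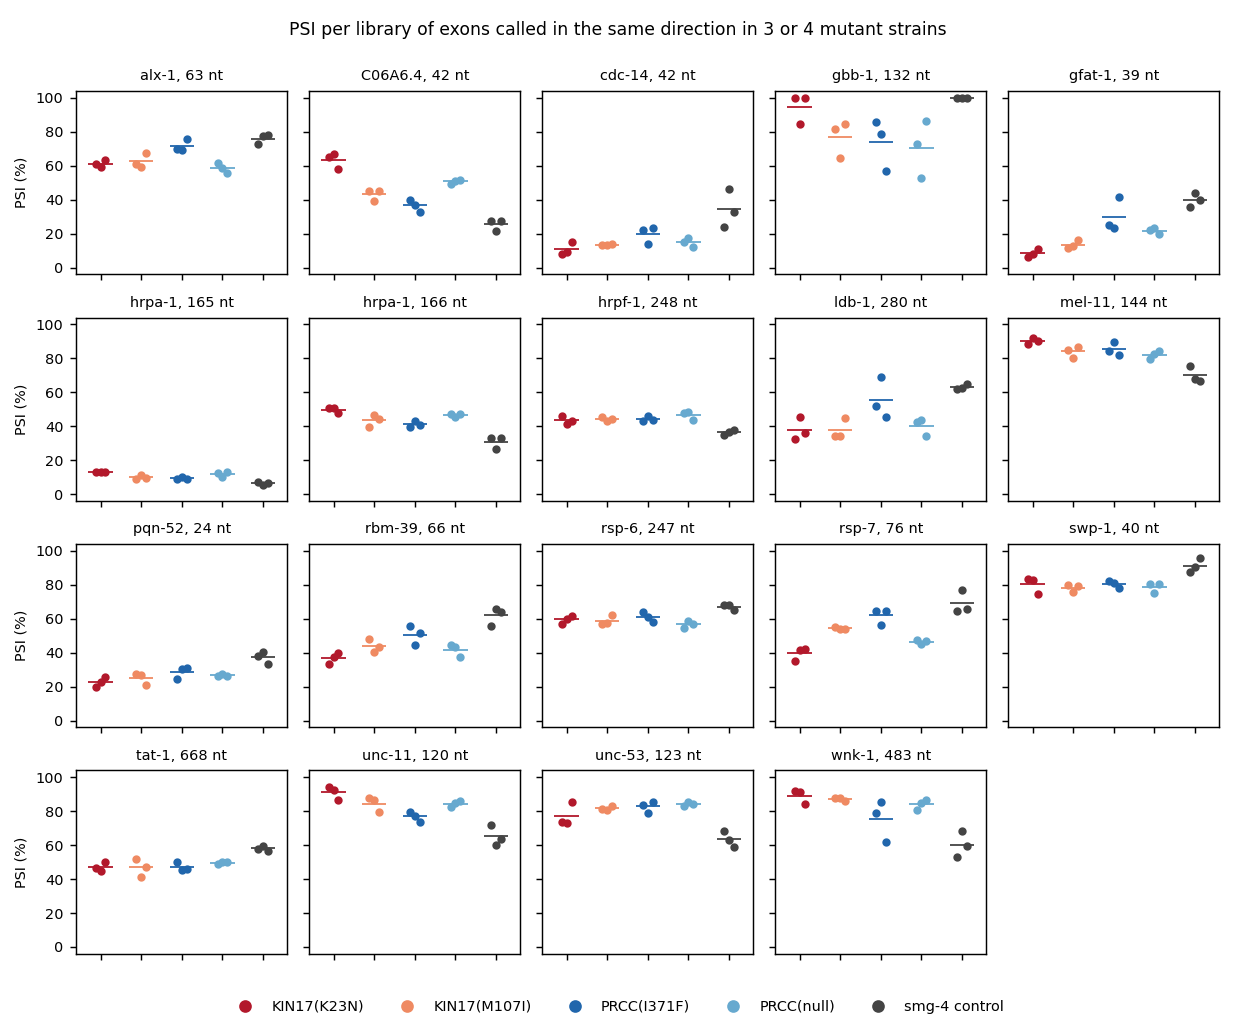
PSI in percent of each library (points) and strain mean (bars) for the skipped exon events that limma called in the same direction in at least 3 mutant strains, which all share the same control libraries. Each panel is 1 event with its gene and exon length, and the strains stand left to right as in the legend, with the smg-4 control last. The control values of gbb-1 are all at 100%.

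Several longer exons were included more often in the mutant strains. The frame-keeping exon of 483 nt in wnk-1, a kinase of the WNK family (chromosome IV, 9209078 to 9209560, plus strand), had 92.2, 91.1 and 84.2% in KIN17(K23N), 87.9, 87.7 and 86.1% in KIN17(M107I), 79.2, 85.2 and 61.8% in PRCC(I371F), and 80.8, 84.8 and 86.4% in PRCC(null), against 52.7, 68.4 and 59.6% in the control. The 120 nt exon of unc-11, which codes for the clathrin adaptor AP180, had 91.1% ± 4.0, 84.5% ± 4.6, 76.9% ± 3.0 and 84.4% ± 2.0 in the same strains, against 65.1% ± 5.9 in the control. Both were called higher in KIN17(K23N) (limma adjusted p = 0.00619 and 0.00171), KIN17(M107I) (0.0333 and 0.0358) and PRCC(null) (0.0311 and 0.0195). The calls in KIN17(K23N) held in 6 of 6 fits with 1 library left out. Those of wnk-1 and unc-11 held in 0 and 1 of 6 in KIN17(M107I), and in 1 and 2 of 6 in PRCC(null). The wnk-1 exon of PRCC(I371F) overlapped with the control, and unc-11 did not.

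A pair of exons was called higher in PRCC(I371F) as well. For the 123 nt exon of unc-53, which acts in cell migration and the outgrowth of axons, the means were 77.4% ± 7.0 in KIN17(K23N) and 81.7% ± 1.4 in KIN17(M107I), and 82.8% ± 3.4 in PRCC(I371F) and 84.2% ± 1.3 in PRCC(null), against 63.4% ± 4.9 in the control (SD, n = 3 each). It was called in all but KIN17(K23N), where the adjusted p from limma was 0.0521. The 144 nt exon of mel-11, the regulatory subunit of myosin phosphatase, had 90.2% ± 1.5, 84.1% ± 3.3, 85.3% ± 4.1 and 82.1% ± 2.3 in these strains, against 69.9% ± 4.7, and was called in all but PRCC(null), where it was 0.0512.

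Lower inclusion of long exons was measured in ldb-1 and tat-1. The 280 nt exon of ldb-1, a LIM domain binding protein (chromosome X, 11036988 to 11037267, SE.0000450), had 32.5, 45.2 and 36% in KIN17(K23N), 34, 34 and 44.6% in KIN17(M107I), 52.1, 68.8 and 45.5% in PRCC(I371F), and 42.6, 43.4 and 34% in PRCC(null), against 62.2, 62.5 and 65% in the control. The differences of -25.3, -25.7 and -23.2 percentage points in all but PRCC(I371F) were called (limma adjusted p = 0.022, 0.0424 and 0.033), with a lowest score sum of 333. The calls in KIN17(M107I) and PRCC(null) were lost when any 1 library was left out. That in KIN17(K23N) held in 2 of 6 such fits. The 668 nt exon of tat-1, an aminophospholipid translocase, had means of 46.8 to 49.7% in the mutant strains, against 58.1% in the control, and was called lower in all but PRCC(null), where the adjusted p was 0.0525.

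In KIN17(K23N) the further exons with the largest differences were in M01B12.4, mtm-3, melo-1 and T04C9.1. Inclusion of the 335 nt exon of mtm-3, a myotubularin-related phosphatase, was 74.9, 75.3 and 70% in KIN17(K23N) and 65.9, 66.8 and 63.7% in KIN17(M107I), against 46.5, 32 and 47.3% in the control, rises of 31.5 and 23.5 percentage points (limma adjusted p = 0.00141 and 0.0265). The 144 nt exon of T04C9.1 had 88.9% ± 2.6 in KIN17(K23N), against 66.9% ± 3.6 in the control (0.00477). Lower values were found for the 132 nt exon of M01B12.4, with 24.2% ± 4.3 in KIN17(K23N), against 54.3% ± 10 in the control (0.00494), and for the 216 nt exon of melo-1, with 40.9% ± 2.2, against 67% ± 9.1 (0.00298). In frpr-9, a gene of the FMRFamide peptide receptor family, the 27 nt exon passed the pairwise rule with 33.3, 0 and 20% in KIN17(K23N), against 55.6, 81.8 and 100% in the control, but limma did not call it (0.165).

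In KIN17(M107I) the largest called difference was in epi-1, a laminin alpha chain of the basement membrane. For its 96 nt exon (chromosome IV, 10677654 to 10677749, plus strand, SE.0000263) PSI was 41.9, 41.4 and 30.9% in KIN17(M107I) and 45.2, 51.6 and 40.4% in PRCC(I371F), against 89.5, 73.5 and 79.4% in the control. These libraries lay well apart, while KIN17(K23N), with 78.1, 60.3 and 46.5%, spread into the control range. The mean fell by 42.7 percentage points in KIN17(M107I) and by 35.1 in PRCC(I371F) (limma adjusted p = 0.023 and 0.0395), and the difference of -22.7 in PRCC(null) was not called (0.0664). A 204 nt exon with no gene name matched (chromosome III, 9267336 to 9267539, SE.0000363) rose by 31.7 percentage points in KIN17(M107I) (0.0313), and an 81 nt exon of ifbp-1 had 45% ± 5.1, against 64.1% ± 6.5 in the control (0.0265). Each of these calls in KIN17(M107I) was lost without control replicate 2. The rule alone passed a 58 nt exon (chromosome X, 8619159 to 8619216, SE.0000176), where PSI was 50, 0 and 50% in KIN17(M107I), against 100, 73.3 and 69.2% in the control, with score sums down to 143 (limma adjusted p = 0.403). It also passed the exon of dop-1, which is given below.

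In PRCC(I371F) the called exons besides those above were few. The 588 nt exon of din-1, a corepressor that works with the nuclear receptor DAF-12 (chromosome II, 11623872 to 11624459), had 67.3, 73.6 and 69.2% in PRCC(I371F), against 100, 100 and 89.5% in the control, a fall of 26.4 percentage points (limma adjusted p = 0.0495). A pair of neighbouring exons of Y69H2.3, of 195 and 192 nt, had 39.9% ± 2.0 and 83.8% ± 1.8 in PRCC(I371F) and 35.1% ± 2.5 and 78.4% ± 4.1 in PRCC(null), against 48.9% ± 3.1 and 91% ± 0.53 in the control. They were called lower in both PRCC strains, with limma adjusted p of 0.0362 and 0.0278 in PRCC(I371F) and 0.00123 and 0.000367 in PRCC(null). The rule also passed the 79 nt exon of unc-49, a GABA receptor gene, at 100% in all PRCC(I371F) libraries, against 33.3, 60 and 77.8% in the control (not called, 0.17). All calls of this strain were lost without its replicate 2, which left 0 called by limma and 75 exons at an unadjusted p under 0.05.

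In PRCC(null) the most significant change of all was a fall in Y17G7B.20. For this 57 nt exon (chromosome II, 11978984 to 11979040, minus strand, SE.0000472) PSI was 53.6, 50.9 and 48.1% in PRCC(null), against 79.7, 79.3 and 74.7% in the control, and 73.7, 67.5 and 68.3% in PRCC(I371F). The mean fell by 27 percentage points in PRCC(null) (limma adjusted p = 2.67e-05), and no other strain was called. The 78 nt exon of C53B7.3 (chromosome X, 6845495 to 6845572) fell as far, to 40.5, 48.4 and 45.4% in PRCC(null), against 69.2, 75.5 and 72.5% in the control (0.00409). The 51 nt exon of ifb-2, an intestinal intermediate filament protein, rose to 79.5% ± 3.3, against 57.6% ± 2.0 (0.00058), and the 249 nt exon of gei-8, a nuclear corepressor of the NCoR type, to 82.6% ± 5.1, against 53.8% ± 6.6 (0.0259).

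Some of the widest differences in PRCC(null) came with widely spread replicates. The 174 nt exon of dop-1, a dopamine receptor, had 90, 68 and 100% in PRCC(null), against 40, 36.8 and 31% in the control, a difference of 50 percentage points (limma adjusted p = 0.0358) that kept its call without 1 only of the 6 libraries. This exon also passed the rule in KIN17(M107I), where limma did not call it (adjusted p = 0.284). Its rise there was 38.9 to 47.6 percentage points with 1 library left out. The 195 nt exon of pef-1, a phosphatase with EF hands, had 66.7, 77.8 and 100% in PRCC(null), against 23.1, 20 and 0% in the control (0.0711), and the 36 nt exon of unc-31, which acts in dense core vesicle release, had 33.3, 33.3 and 20%, against 100, 50 and 57.1% (0.18). Both passed the rule and not the test, and their score sums fell to 200 and 333. The 132 nt exon of gbb-1, a GABA-B receptor subunit, was at 100% in all control libraries and at 72.7, 52.9 and 86.7% in PRCC(null), 85.7, 78.9 and 57.1% in PRCC(I371F) and 81.8, 64.7 and 84.6% in KIN17(M107I). It was called lower in these 3 strains (0.0145, 0.0495 and 0.0416), with a score sum of only 100 in the lowest library.

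Neuronal and synaptic genes were measured by 35 events in 22 genes of a list, also chosen with earlier results of these data known. KIN17(K23N) had 2 higher and 0 lower, KIN17(M107I) 1 and 1, PRCC(I371F) 1 and 1, and PRCC(null) 2 and 3. That is 5.71% of the list in each of the first 3 strains, beside 8.84%, 3.5% and 2.06% of all annotated events, and 14.3% in PRCC(null), beside 9.41%. The median absolute difference was 4.41, 5.65, 4.26 and 4.76 percentage points, against 1.54, 1.39, 1.38 and 1.74 over all annotated events. The medians over all skipped exons, given above, lay between these in every strain. Besides unc-53, gbb-1 and dop-1, the ankyrin gene unc-44 was lower in PRCC(null) at exons of 18 nt (20.4% ± 2.1, against 38.8% ± 2.3 in the control, limma adjusted p = 0.00199) and 78 nt (74% ± 3.1, against 87.9% ± 3.1, 0.0254). In KIN17(K23N) inclusion was higher at a 99 nt exon of unc-16, a JIP3 homologue, with 92.8% ± 1.7, against 82.2% ± 1.8 in the control (0.00805), and at a 114 nt exon of unc-43, the CaMKII gene, with 47.3% ± 1.8, against 41.4% ± 1.9 (0.0161). The exons of unc-103, a potassium channel gene, and the other exons of unc-43 and unc-16 nearest to 50% were not called, with control means of 47.8 to 54.4%.

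Muscle and basement membrane genes, 26 events in 13 genes, had 3 lower in KIN17(K23N), 2 lower in KIN17(M107I), 1 lower in PRCC(I371F) and 2 higher in PRCC(null). These are 11.5%, 7.69%, 3.85% and 7.69% of the list, beside 8.84%, 3.5%, 2.06% and 9.41% of all annotated events. Their median absolute difference was 1.96, 1.49, 1.05 and 3.56 percentage points. The 9 nt exon of clp-1, a calpain protease (chromosome III, 7985278 to 7985286), was 56.1, 58.5 and 66.4% in KIN17(K23N) and 61.8, 61.7 and 67.4% in KIN17(M107I), against 73.4, 81.9 and 76% in the control (limma adjusted p = 0.00839 and 0.0493). In lev-11, the tropomyosin gene, an 86 nt exon with a pair of events was rare in every library. Its event SE.0000139 had 1.0% ± 0.087 in KIN17(K23N) and 3.47% ± 0.30 in PRCC(null), against 2.03% ± 0.29 in the control, and was called lower in the one and higher in the other (0.00805 and 0.0114), the only skipped exon called against the control in opposite directions. Exons of tnt-3, a troponin T gene, and of nid-1, the nidogen gene, were not called against the control, and neither was the single ribosomal protein event, a 176 nt exon of rps-22 with means of 37.9 to 41.6% in the mutant strains and 39.7% in the control.

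The share of exons called was higher among frame-shifting than among frame-keeping exons in KIN17(K23N) and PRCC(null), and this difference was not tested. These groups rest on length alone and hold exons that are not coding, such as that of rsp-6. In KIN17(K23N) 27 of 143 frame-shifting exons were called (18.9%) and 40 of 411 frame-keeping exons (9.73%), beside 8.84% of all annotated events. In PRCC(null) these were 22 (15.4%) and 40 (9.73%), beside 9.41%. The shares were close together in KIN17(M107I), with 9 (6.29%) and 21 (5.11%), and in PRCC(I371F), with 3 (2.1%) and 8 (1.95%). The directions were balanced among frame-shifting exons, with 13 higher and 14 lower in KIN17(K23N) and 13 and 9 in PRCC(null). The frame-shifting exons that were called include forms of asd-1, hrpa-1, hrpf-1, rsp-6, rsp-7, swp-1 and etr-1, all genes of RNA-binding proteins. They also include exons of mtm-3, ldb-1, tat-1 and lev-11, which are not on the RNA-binding list. A frame-shifting exon also had a mean between 20 and 80% more often, as given above, where a difference in PSI has more room, and the part of this in the shares was not tested.

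The alleles of each gene were compared with each other, without the control. Between the KIN17 alleles, 1 skipped exon differed (0.131% of all annotated events, 0.0438% higher and 0.0875% lower). It was the exon of C06A6.4, at 43.2% ± 3.2 in KIN17(M107I), against 63.4% ± 4.4 in KIN17(K23N), a difference of -20.3 percentage points (limma adjusted p = 0.0343). Without KIN17(K23N) replicate 3 there were 13 such exons, and without any other of the 6 libraries limma called 0, with 70 to 89 at an unadjusted p under 0.05. Both comparisons of alleles are between libraries numbered 1 to 9 and 24 to 29, so allele and library set cannot be told apart. The KIN17 strains also carry different unc-73 alleles, which cannot be told apart from their dxbp-1 alleles.

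Between the PRCC alleles 15 skipped exons differed, 7 higher and 8 lower in PRCC(null) (2.71%, against 2.06% of all annotated events, 1.36% higher and 0.7% lower). PSI of C53B7.3 was 40.5, 48.4 and 45.4% in PRCC(null), against 82, 69.7 and 69.8% in PRCC(I371F), a difference of -29 percentage points (limma adjusted p = 0.00705). That of Y17G7B.20 was lower by 19 (0.00157). These calls held with any 1 library left out. The 3 events of asd-1 were higher in PRCC(null) than in PRCC(I371F) by 23.2 to 26.1 percentage points (0.0122 to 0.0447), and the 42 nt exon of C06A6.4 by 14.1 (0.0345). Leaving out 1 library gave 4 to 15 calls, with 4 without PRCC(null) replicate 3 and 5 without its replicate 1.

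**Figure D5:**
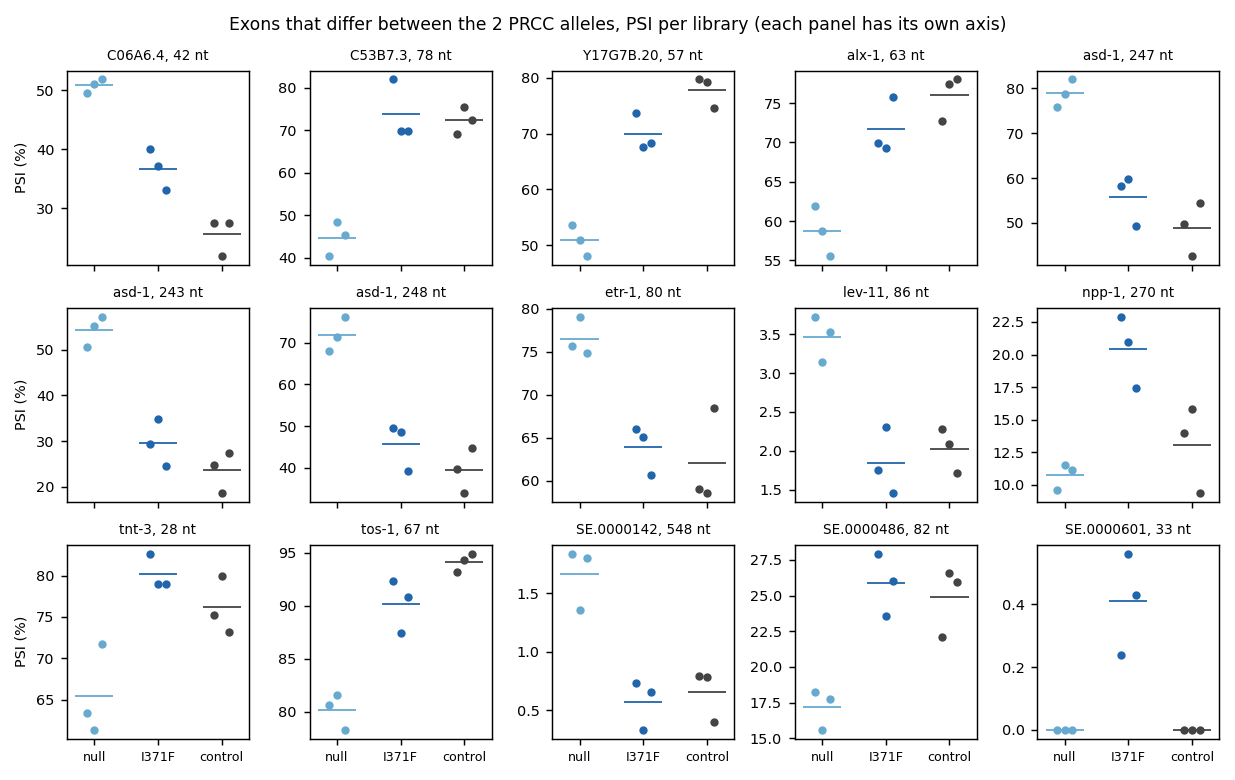
PSI in percent of each library (points) and strain mean (bars) for the 15 skipped exon events that differed between PRCC(null) and PRCC(I371F), with the smg-4 control at the right of each panel. Every panel has an axis of its own, which does not start at 0 in most panels. The 15 events were chosen for a called difference between these strains, so a gap in each panel follows from the choice. The size of the difference runs from 0.41 percentage points at SE.0000601 to 29 at C53B7.3.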

How the data were processed

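Poly(A) RNA of mixed-stage worms, 3 RNA isolations for each of 5 strains, was sequenced as paired reads. Per the methods, the authors mapped reads with a modified STAR on the WS220/ce10 genome and scored events with junctionCounts. The tools cutadapt, Bowtie2 and SAMtools are also named in the submitters' processing notes. The deposited files give each form of an event a score, a PSI times 1000. PSI was recomputed here as included score over the sum of both, and the pairs 1 and 999 were read as exactly 0 or 100%. The methods call the 3 libraries of a strain biological replicates. No read depth is given with the scores, so no counting interval is given.

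Differences were tested with limma 3.58.1 (R 4.3.3; trend and robust) on log2((PSI + 0.01)/(1 - PSI + 0.01)), with PSI as a fraction, for 2285 annotated events in all 15 libraries, with Benjamini-Hochberg adjustment over all of them. Differences are printed in percentage points of PSI. The code was tested on simulated data. The alternatives were the pairwise rule at other sizes, another offset or none, PSI as score over 1000, fits of 6 libraries, events not always at 0 or 100%, and each library left out. A minimum score sum of 500 was added after seeing the data.

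Exon coordinates are those of the files (ce10). Gene names were assigned by matching exon and intron lengths, chromosome and strand to a WBcel235 annotation, for 489 events in full and for 19 in part, and 46 stayed unnamed. No sequence is shown. The events named were, for each mutant strain, those past the pairwise rule and the 10 with the largest mean difference among called events with libraries that do not overlap, those called in the same direction in at least 3 strains, up to 5 for each pair of alleles, the 5 nearest to 50% in the control, the shortest and the longest, and from each gene list those called and up to 3 not called. The members, lists and rules were chosen with earlier results of these data known. Tables were read with Python 3.11.15 and pandas 2.3.3. A named event of the RNA-binding list is counted but not reported here by name or drawn.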

Additional observations from a re-analysis of the deposited data

Results flagged for a closer look

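A difference between alleles of the same gene, tested directly in limma, picked out 1 exon for KIN17 and 15 for PRCC, and all values here are differences in PSI in percentage points with the adjusted p. The alleles stand in different sets of libraries, so allele and set cannot be told apart. For KIN17 the unc-73 allele differs as well and cannot be told apart from the dxbp-1 allele. For KIN17(M107I) minus KIN17(K23N) the exon of C06A6.4 differed by -20.3 (0.0343). For PRCC(null) minus PRCC(I371F), the events of asd-1 differed by 23.2 (SE.0000065, 0.0189), 24.8 (SE.0000231, 0.0447) and 26.1 (SE.0000568, 0.0122), and they share reads of 1 skipping junction. The exon of C06A6.4 differed by 14.1 (0.0345), the 80 nt exon of etr-1 by 12.6 (0.0455), the rare 86 nt exon of lev-11 by 1.62 (SE.0000139, 0.0125) and an unnamed exon by 1.09 (SE.0000142, 0.0251).

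Lower in PRCC(null) than in PRCC(I371F) were C53B7.3 by -29 (0.00705), Y17G7B.20 by -19 (0.00157) and alx-1 by -12.9 (0.0386). The 28 nt exon of tnt-3, a troponin T gene, differed by -14.7 (0.0273), and tos-1 by -10.04 (0.00705). The 270 nt exon of npp-1, a nucleoporin gene, differed by -9.70 (0.0205) although PRCC(null) was not called against the control (0.496). The unnamed events SE.0000486 and SE.0000601 differed by -8.65 (0.0251) and -0.41 (0.032), and all libraries of PRCC(null) and of the control were at 0% for SE.0000601.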

How the results depend on the processing

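No paired analysis was possible because the labels number the libraries once through the series, and the replicate numbers 1 to 3 used here only follow accession order within a strain. With 1 library left out, limma called 46 to 72 skipped exons in KIN17(K23N), 0 to 19 in KIN17(M107I), 0 to 7 in PRCC(I371F), 38 to 60 in PRCC(null), 0 to 13 between the KIN17 alleles and 4 to 15 between the PRCC alleles, and the pairwise rule passed 11 to 22, 8 to 15, 3 to 6 and 16 to 21 in the 4 mutant strains in that order. Where limma called 0, the counts at an unadjusted p under 0.05 are given in the report. The call held in every such fit for 23 of 33 named events in KIN17(K23N), 0 of 24 in KIN17(M107I), 0 of 10 in PRCC(I371F) and 19 of 32 in PRCC(null). With only the 6 libraries compared, limma called 0 in each of the 4 strains (88, 74, 36 and 111 at an unadjusted p under 0.05). With pairwise differences over 10 points the rule passed 20 in KIN17(K23N), 5 in PRCC(I371F) and 22 in PRCC(null), and over 20 points 6 in KIN17(K23N), 2 in KIN17(M107I) and 8 in PRCC(null). With PSI as the included score over 1000 it passed 5 in KIN17(M107I) and 6 in PRCC(I371F), limma called 11 and 7, and the control medians were 39.3% for frame-keeping and 40.8% for frame-shifting exons. Under that unit the 248 nt form of asd-1 turned to -3.76 in KIN17(K23N), -5.27 in PRCC(null) and -5.17 between the PRCC alleles, and the 219 nt exon of etr-1 to -0.055 in PRCC(null). With a score sum of at least 500 in all libraries, chosen after seeing the data, the rule passed 5 in KIN17(M107I) and 8 in PRCC(null). PRCC(I371F) had 6 calls among events not always at 0 or 100%, and 7 with a difference over 10 points also required. The cause of these shifts was not tested. Depth is unknown, so values at 0 or 100% and those with low score sums have no error beyond the spread of 3 libraries.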
